A study of Bos taurus and Bos indicus with 12 samples.

Results

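The S100A genes encode small calcium-binding proteins, and their expression was followed in the skin of 12 female cattle that were tick-naive or carried the cattle tick Rhipicephalus microplus. The members are all probe sets, that is, groups of array probes read as 1 value, whose only gene symbol in the platform annotation is S100A followed by digits. There were 15 such probe sets for 12 genes, of 24016 probe sets tested. S100A1, S100A9 and S100A10 had 2 probe sets each, and the other 9 genes had 1. Of the 14 S100A genes of the bovine RefSeq gene table, S100A3 and S100A5 had no probe set under the rule. Values are expression on the log2 scale, so a difference of 1 is a doubling, and each group had n = 3 arrays, 1 per animal.

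The animals were of the taurine dairy breed Holstein-Friesian and the indicine breed Brahman, the latter known for its resistance to this tick. Naive animals had never met the tick and were 12 months old in Holstein-Friesian and 18 months old in Brahman. Infested animals of both breeds were 6 months old, had been through repeated heavy infestation, and were sampled where young larvae were attached. Infestation and age cannot be told apart within a breed. Nor can breed and age among the naive animals, which also enter the breed difference in the infestation effect. The samples were full-thickness skin biopsies, so fewer cells of a type and less RNA per cell cannot be told apart.

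S100A8 and S100A9 join into calprotectin, a metal-binding complex that neutrophils and monocytes carry in their cytoplasm and that stressed keratinocytes also make. S100A12 is a related protein of bovine granulocytes, and once outside the cell these 3 proteins act as alarmins, signals of tissue damage that reach cells through the receptors TLR4 and RAGE (gene AGER). S100A2, S100A7, S100A14 and S100A16 are made by keratinocytes and other epithelial cells, and S100A4, S100A10, S100A11 and S100A13 by fibroblasts and many other cells. S100A1 is best known from muscle. All 14 genes lie on chromosome 3 of the RefSeq assembly ARS-UCD2.0, and S100A8, S100A12 and S100A9 are adjacent there, with no coding gene between them. S100A11 and S100A10 stand apart, with 27 coding genes between S100A9 and S100A11.

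The arrays differed in RNA integrity, read as the mean 5' minus 3' signal of 6 control transcripts, where a lower value means that less of the 5' end was left. This index lay between -1.34 and -0.99 in the 6 naive arrays, between -2.35 and -0.57 in infested Holstein-Friesian and between -4.27 and -1.76 in infested Brahman arrays. Infested Brahman array 1 had the lowest index and infested Holstein-Friesian array 1 the next lowest. Every infested Brahman array lay below every naive one, so infestation and RNA integrity cannot be fully told apart in Brahman skin. This limit holds for each Brahman value given below with the index as a covariate. The biopsies held epidermis by the basal keratin genes KRT5, between 13.75 and 14.11, and KRT14, between 14.22 and 14.67 in the 12 arrays. Neither passed the test in either breed (limma adjusted p = 0.508 and 0.566 in Holstein-Friesian and 0.759 and 0.979 in Brahman skin). The keratinocyte gene KRT10 lay between 14.05 and 14.35, but SFN lay between 5.43 and 12.08 and TGM3 between 3.74 and 8.61. Whether the arrays held equal shares of epidermis was not tested.

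No S100A probe set passed the test for infestation in either breed. In Holstein-Friesian skin 0 of 15 passed limma at an adjusted p under 0.05, where 5.02% of all probe sets passed, and 3 had an unadjusted p under 0.05, against 21.6% of all probe sets. In Brahman skin 0 of 15 passed, against 19.8% of all probe sets, and 4 had an unadjusted p under 0.05, against 34.7%. The median log2 difference of the members was -0.15 in Holstein-Friesian and -0.35 in Brahman animals, beside -0.03 and 0.04 for all probe sets. The 4 alarmin probe sets had negative differences in both breeds, with a median of -0.84 in Holstein-Friesian and -0.92 in Brahman animals.

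**Figure D1:**
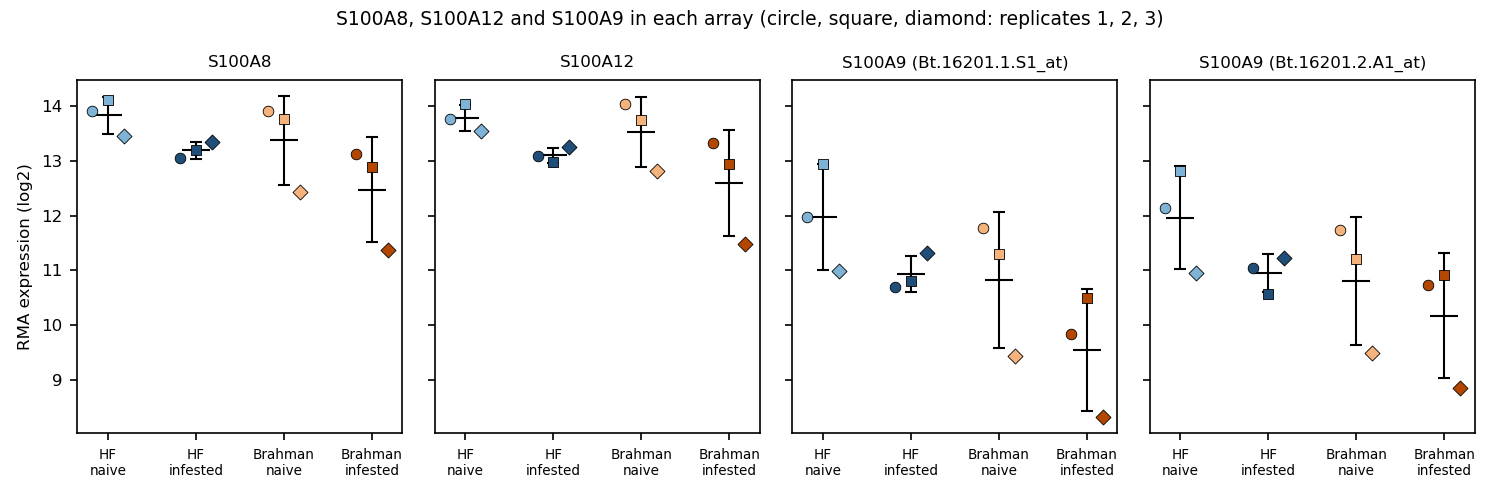
RMA expression (log2) of S100A8, S100A12 and the 2 probe sets of S100A9 in each of 12 arrays, by breed (HF, Holstein-Friesian) and infestation. Points are arrays, horizontal bars are group means and error bars are SD (n = 3); no infested array lies above the highest naive array in any panel.

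S100A8, one chain of calprotectin, stood at 13.91, 14.11 and 13.46 in naive Holstein-Friesian arrays 1 to 3 and at 13.05, 13.19 and 13.34 in the infested ones. The infested arrays all lay below the naive ones, and naive array 3 came closest to them. In Brahman animals S100A8 stood at 13.90, 13.77 and 12.43 in naive and at 13.13, 12.89 and 11.37 in infested arrays. Array 3 was the lowest of both Brahman groups, and the groups overlapped. Its log2 difference was -0.63 ± 0.47 (SE, adjusted p = 0.468 by limma) in Holstein-Friesian and -0.90 ± 0.47 (adjusted p = 0.194) in Brahman animals. The 95% intervals, which are not adjusted for the number of probe sets, reached from -1.66 to 0.39 and from -1.93 to 0.12. A rise of more than 1.31-fold in Holstein-Friesian or 1.09-fold in Brahman animals therefore lay outside them, and a fall of 3.16-fold or 3.8-fold did not. The largest value of the whole table was 14.82. Whether signals as high as those of S100A8 and S100A12 are compressed was not tested, which limits what these bounds say of a rise.

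S100A12, an alarmin known from granulocytes, had a mean signal at percentile 99.6 of the tested probe sets. Its cell source in this skin was not tested. S100A12 showed the same arrangement of arrays as S100A8. It stood at 13.77, 14.03 and 13.54 in naive and at 13.09, 12.98 and 13.25 in infested Holstein-Friesian arrays, which did not overlap. In Brahman animals it stood at 14.03, 13.74 and 12.81 in naive and at 13.32, 12.94 and 11.49 in infested arrays, which did. The differences were -0.68 ± 0.43 (adjusted p = 0.392) and -0.94 ± 0.43 (adjusted p = 0.143). Of the 15 members S100A12 was the one whose call depended on the low-integrity arrays. Without the 2 arrays of lowest index its log2 difference in Brahman animals was -1.31 and passed (adjusted p = 0.0474). Infested Brahman arrays 2 and 3 were then left, at 12.94 and 11.49. S100A12 did not pass when either of the 2 lowest-index arrays alone was left out. With the index as a covariate the difference was -1.46 and did not pass (adjusted p = 0.0924). Over all alternatives in Brahman animals its difference lay between -1.67 and -0.39.

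S100A9, the other chain of calprotectin, varied most of the 3. Its first probe set stood at 11.97, 12.94 and 10.99 in naive and at 10.70, 10.80 and 11.31 in infested Holstein-Friesian arrays. In Brahman animals it stood at 11.77, 11.29 and 9.43 in naive and at 9.83, 10.49 and 8.32 in infested arrays. Both pairs of groups overlapped, and the lowest value of all 12 arrays was again that of infested Brahman array 3. The differences were -1.03 ± 0.69 (adjusted p = 0.417) and -1.28 ± 0.69 (adjusted p = 0.210). Its second probe set gave -1.01 ± 0.67 in Holstein-Friesian and -0.65 ± 0.67 in Brahman animals.

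Single animals moved these values. In Brahman animals the S100A8 difference was -0.35 without infested array 3 and -1.37 without naive array 3, and that of S100A12 was -0.39 and -1.30. The second probe set of S100A9 was at 0.01 without infested array 3, so its direction in Brahman animals rested on that animal. In Holstein-Friesian animals the first S100A9 probe set ranged from -1.52 without naive array 3 to -0.55 without naive array 2, and S100A8 from -0.82 to -0.49 when any 1 of the 12 arrays was left out. Naive Brahman array 3 also had the highest level of the skeletal muscle list, 1.46 above the naive mean, and the lowest level of the keratinocyte list among naive arrays, at -0.32. The part of these tissue differences in the low alarmin values of that array was not tested.

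The alarmin genes varied together from animal to animal. Over the 12 arrays S100A8 and S100A12 had a Pearson r of 0.978 and a Spearman rho of 0.944 (permutation p = 1e-05 and 2e-05, adjusted p = 2.25e-05 and 9e-05 over 9 relations; 1e-05 is the smallest p that the permutations can give). S100A8 and the first S100A9 probe set had an r of 0.944 and a rho of 0.958 (permutation p = 1e-05 and 2e-05, adjusted p = 2.25e-05 and 9e-05). S100A12 and the same S100A9 probe set had an r of 0.890 and a rho of 0.867 (permutation p = 0.00012 and 0.00059, adjusted p = 0.00018 and 0.00102). Without the 2 arrays farthest from the median, r was 0.932, 0.908 and 0.821 for these 3 pairs. With the group means taken out it was 0.979, 0.912 and 0.861. Among the 6 naive arrays r was 0.980, 0.954 and 0.931, and among the 6 infested arrays 0.981, 0.918 and 0.846. The spread within groups was mostly that of Brahman animals. The SD of S100A8 was 0.81 in naive and 0.96 in infested Brahman arrays, and 0.34 and 0.15 in Holstein-Friesian ones. Array 3 was the lowest of both Brahman groups, and r without naive Brahman array 3 was not computed. Whether the relation held in each group alone was not tested.

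**Figure D2:**
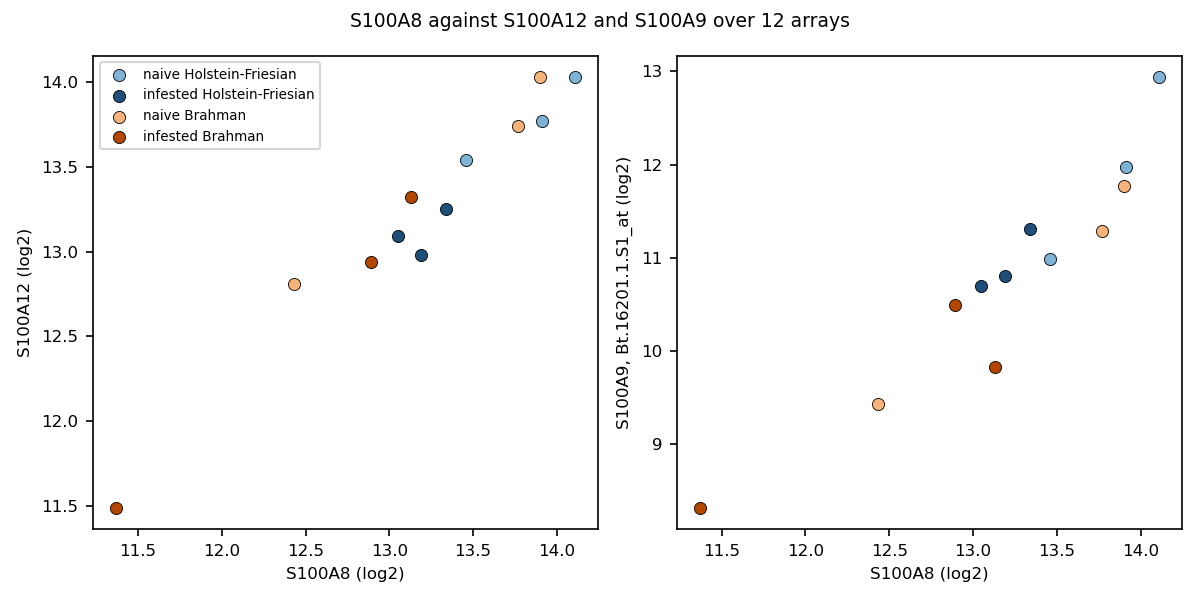
S100A12 (left) and S100A9 (right, 1 probe set) against S100A8, in log2 RMA expression, with 1 point per array and colours for the 4 groups. Both genes rise along S100A8 through all groups, from infested Brahman array 3 at the lower left to naive Holstein-Friesian array 2 at the upper right.

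Among all named genes, the one whose probe set was most like S100A8 over the 12 arrays was S100A12, and the next was S100A9. For both S100A9 probe sets the first was S100A8 and the next S100A12. After these, S100A8 was most like CENATAC (r = 0.874), LOC100847724 (0.862) and MYOD1 (0.861). S100A12 had C3H1orf210 (0.904) and IMP4 (0.893) between S100A8 and S100A9, and ZSCAN21 (0.888) after them. The first S100A9 probe set had DCP1B (0.866), LOC100847724 (0.848) and RBM19 (0.842), and the second had PDE2A (0.879), RGR (0.864) and GSDMC (0.857). These are descriptions over 12 arrays of 4 groups that share the group differences, and the genes were picked for their likeness.

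KRT6B, the keratin of wounded and hyperproliferative epidermis, was set beside the alarmins after its values were seen. It was 8.55-fold higher in infested Brahman skin (adjusted p = 0.0422), a call that was lost with each of 9 of the 12 arrays left out in turn, at differences between 2.76 and 3.40. Its r over the 12 arrays was 0.0414 with S100A8 (permutation p = 0.906), -0.102 with S100A12 (permutation p = 0.768) and 0.224 with S100A9 (permutation p = 0.483). Their adjusted p over the 9 relations was 0.906, 0.864 and 0.621, and the rho values were 0.189, 0.0559 and 0.315 (permutation p = 0.559, 0.870 and 0.320). Without the 2 arrays farthest from the median of the S100A gene, r was 0.0425, 0.248 and 0.191. It was 0.659, 0.571 and 0.828 among the 6 naive arrays and 0.119, 0.0262 and 0.269 among the 6 infested ones.

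The epidermal members did not pass the test either. S100A7, the psoriasin gene of differentiating keratinocytes, varied little within groups. It stood at 14.09, 14.12 and 14.05 in naive and averaged 13.96 ± 0.03 (SD) in infested Holstein-Friesian arrays, with 13.94 the lowest. The largest value of the whole table was 14.82, and whether signals this high are compressed was not tested. In Brahman animals it stood at 14.28, 14.20 and 13.95 in naive and at 13.68, 13.97 and 13.73 in infested arrays. The Holstein-Friesian groups did not overlap although they lay only 0.12 apart, at a difference of -0.12 ± 0.13 (adjusted p = 0.634). In Brahman animals the difference was -0.35 ± 0.13 (adjusted p = 0.0785). It passed with a trended and robust prior (adjusted p = 0.0433), and lay between -0.45 and -0.25 over all settings in Brahman animals, passing in no other.

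S100A2, a nuclear S100 protein of basal keratinocytes, had almost the same mean in the 4 groups. Naive Holstein-Friesian arrays averaged 13.18 ± 0.28 (SD) and infested ones 13.22 ± 0.33, and naive Brahman arrays averaged 13.16 ± 0.48 and infested ones 13.13 ± 0.13. Its differences were 0.04 ± 0.25 and -0.03 ± 0.25 (SE), and the group means spanned 0.09. The 95% intervals, from -0.51 to 0.59 and from -0.58 to 0.52, hold a rise of up to 1.51-fold in Holstein-Friesian and a fall of up to 1.5-fold in Brahman animals.

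S100A14 and S100A16, epithelial genes that are neighbours on the chromosome, were each set by 1 array in Brahman animals. S100A14 stood at 7.72, 11.42 and 11.22 in infested Brahman arrays and between 11.04 and 11.94 in the 6 naive and between 11.28 and 11.75 in the 3 infested Holstein-Friesian arrays. S100A16 stood at 9.17, 11.10 and 10.88 in infested Brahman arrays. It stood at 11.45, 11.37 and 11.09 in naive Brahman arrays, so 1 infested array overlapped them. The low value of both genes was that of infested Brahman array 1, which also had the lowest RNA integrity index and the lowest keratinocyte list level, -1.37 against -0.37 to 0.28 in the other arrays. Without the keratinocyte gene SFN that level was -0.75 against -0.30 to 0.32. Their part in these 2 values was not tested. The Brahman differences were -1.38 ± 0.76 for S100A14 and -0.92 ± 0.41 for S100A16 (adjusted p = 0.220 and 0.140), and -0.18 and -0.32 without that array.

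S100A16 had its Holstein-Friesian groups apart. It stood at 11.20, 11.82 and 11.16 in naive and at 11.01, 10.56 and 10.91 in infested arrays, a difference of -0.57 ± 0.41 (adjusted p = 0.466). S100A14 had a difference of -0.02 ± 0.76 there, with an interval from -1.69 to 1.65. The wide interval came with the pooled spread, since in the 6 Holstein-Friesian arrays alone the SE was 0.22.

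**Figure D3:**
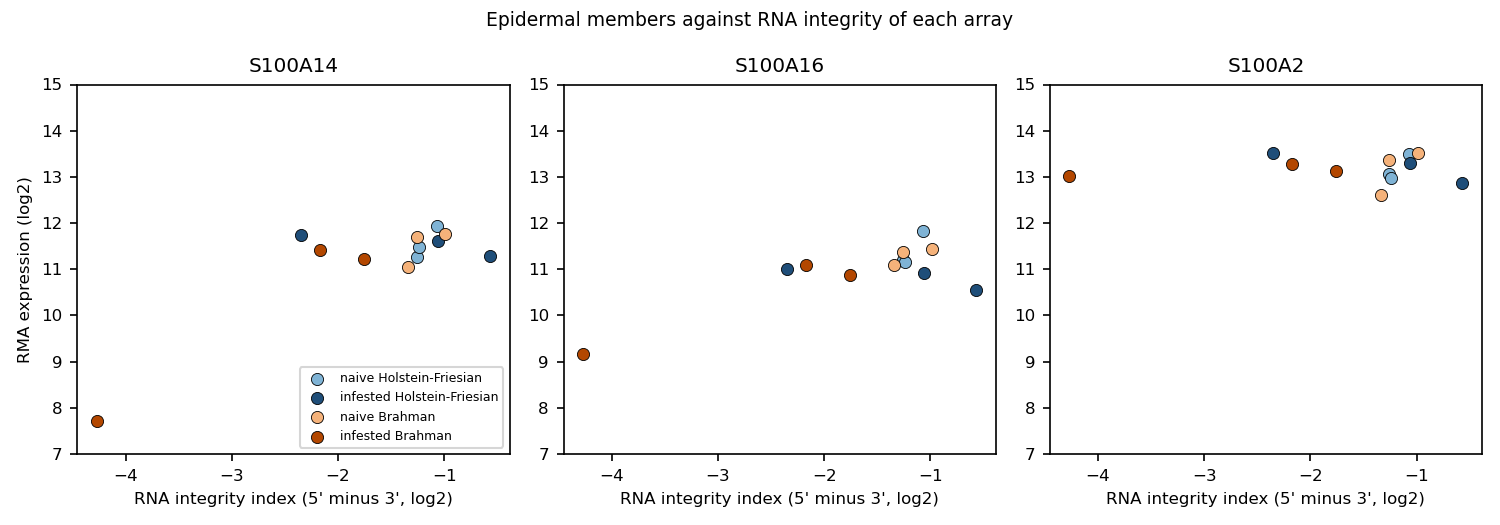
RMA expression (log2) of S100A14, S100A16 and S100A2 against the RNA integrity index of each array (mean 5' minus 3' signal of 6 control transcripts, log2), with 1 point per array and colours for the 4 groups. Infested Brahman array 1, at an index of -4.27, stands at 7.72 and 9.17 in the first 2 panels and among the other arrays, at 13.01, for S100A2.

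The members of fibroblasts and many other cells had small differences. S100A4, a marker of fibroblasts and some myeloid cells that binds non-muscle myosin, stood at 12.65, 13.18 and 12.87 in naive and at 12.91, 12.68 and 12.61 in infested Holstein-Friesian arrays. Naive Brahman arrays had 12.64, 13.11 and 12.57 and infested ones 12.73, 13.19 and 13.01. The groups overlapped in both breeds, and the differences were -0.17 ± 0.20 (adjusted p = 0.670) and 0.20 ± 0.20 (adjusted p = 0.493). S100A4 did not pass while other fibroblast genes did. Of 14 measured genes of the fibroblast list 4 rose in Holstein-Friesian skin, where 5.02% of all probe sets passed. Among them were DPT at 3.06-fold, FAP at 2.73-fold and LUM at 2.32-fold. In Brahman skin, where 19.8% of all probe sets passed, 6 rose, among them LUM 5.37-fold, PDGFRA 2.67-fold and COL1A1 2.35-fold. None fell in either breed. In Holstein-Friesian skin no fibroblast gene passed without infested array 2, while 5 to 7 did in Brahman skin when any 1 array was left out.

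S100A10, which binds annexin A2 and plasminogen at the cell surface, was read by 2 probe sets that pointed in opposite directions. The first stood at 12.41, 12.79 and 12.63 in naive and at 11.97, 12.32 and 12.55 in infested Holstein-Friesian arrays, with a difference of -0.33 ± 0.17 (adjusted p = 0.285). In Brahman animals it stood at 12.72, 12.95 and 12.75 in naive and at 12.45, 12.45 and 12.29 in infested arrays, which did not overlap, with a difference of -0.41 ± 0.17 (adjusted p = 0.105). The second gave 0.16 ± 0.22 and 0.23 ± 0.22. No direction can be given for S100A10. Its partner gene ANXA2 stood at 0.06 ± 0.33 and -0.75 ± 0.33 and did not pass. It was 11.62, 13.20 and 13.13 in infested Brahman arrays, and the Brahman difference was -0.24 without array 1, the array of lowest index.

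S100A11, an annexin A1 partner, also varied little within groups, with differences of -0.15 ± 0.13 in Holstein-Friesian and 0.07 ± 0.13 in Brahman animals. It stood at 12.90, 12.94 and 12.87 in naive and at 13.02, 12.95 and 12.96 in infested Brahman arrays, which did not overlap. S100A13, which takes part in the export of proteins that lack a signal peptide, such as FGF1 and interleukin 1 alpha, had the smallest p of the members. It stood at 8.44, 8.38 and 9.07 in naive and at 9.73, 9.59 and 9.32 in infested Holstein-Friesian arrays. The infested arrays were all higher, by 0.92 ± 0.27 or 1.89-fold (adjusted p = 0.0771), short of the threshold. In Brahman animals S100A13 stood at 8.52, 8.97 and 9.57 in naive and at 9.29, 8.82 and 8.97 in infested arrays, a difference of 0.01 ± 0.27. The difference between the breeds in this effect was -0.91 ± 0.38 and did not pass (unadjusted p = 0.0372, adjusted p = 0.660).

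S100A1, the member best known from muscle, had the lowest values on its own probe sets in naive Holstein-Friesian animals. The first of them stood at 5.57, 6.28 and 6.26 in naive and at 7.58, 6.41 and 6.86 in infested Holstein-Friesian arrays, which did not overlap. In Brahman animals it stood at 6.04, 6.75 and 7.04 in naive and at 7.90, 7.13 and 6.95 in infested arrays. The differences were 0.91 ± 0.37 (adjusted p = 0.180) and 0.72 ± 0.37 (adjusted p = 0.192), and the other probe set gave 0.61 ± 0.23 and 0.18 ± 0.23. The highest values were those of the lowest-index array of each breed, 7.58 and 7.90, and with the index as a covariate the Brahman difference of the first probe set was -0.02. The index did not overlap between the naive and infested Brahman arrays, and the part of RNA integrity in these values was not tested further. The skeletal muscle list had a median difference of -0.23 in Holstein-Friesian and -1.46 in Brahman skin. In Brahman skin, where 19.8% of all probe sets passed, 3 of its 10 measured genes fell and 1 rose. Those that fell were MYBPC1 5.88-fold, TNNC2 3.86-fold and TNNI2 2.54-fold. Of these 3, MYBPC1 alone passed whichever array was left out.

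**Figure D4:**
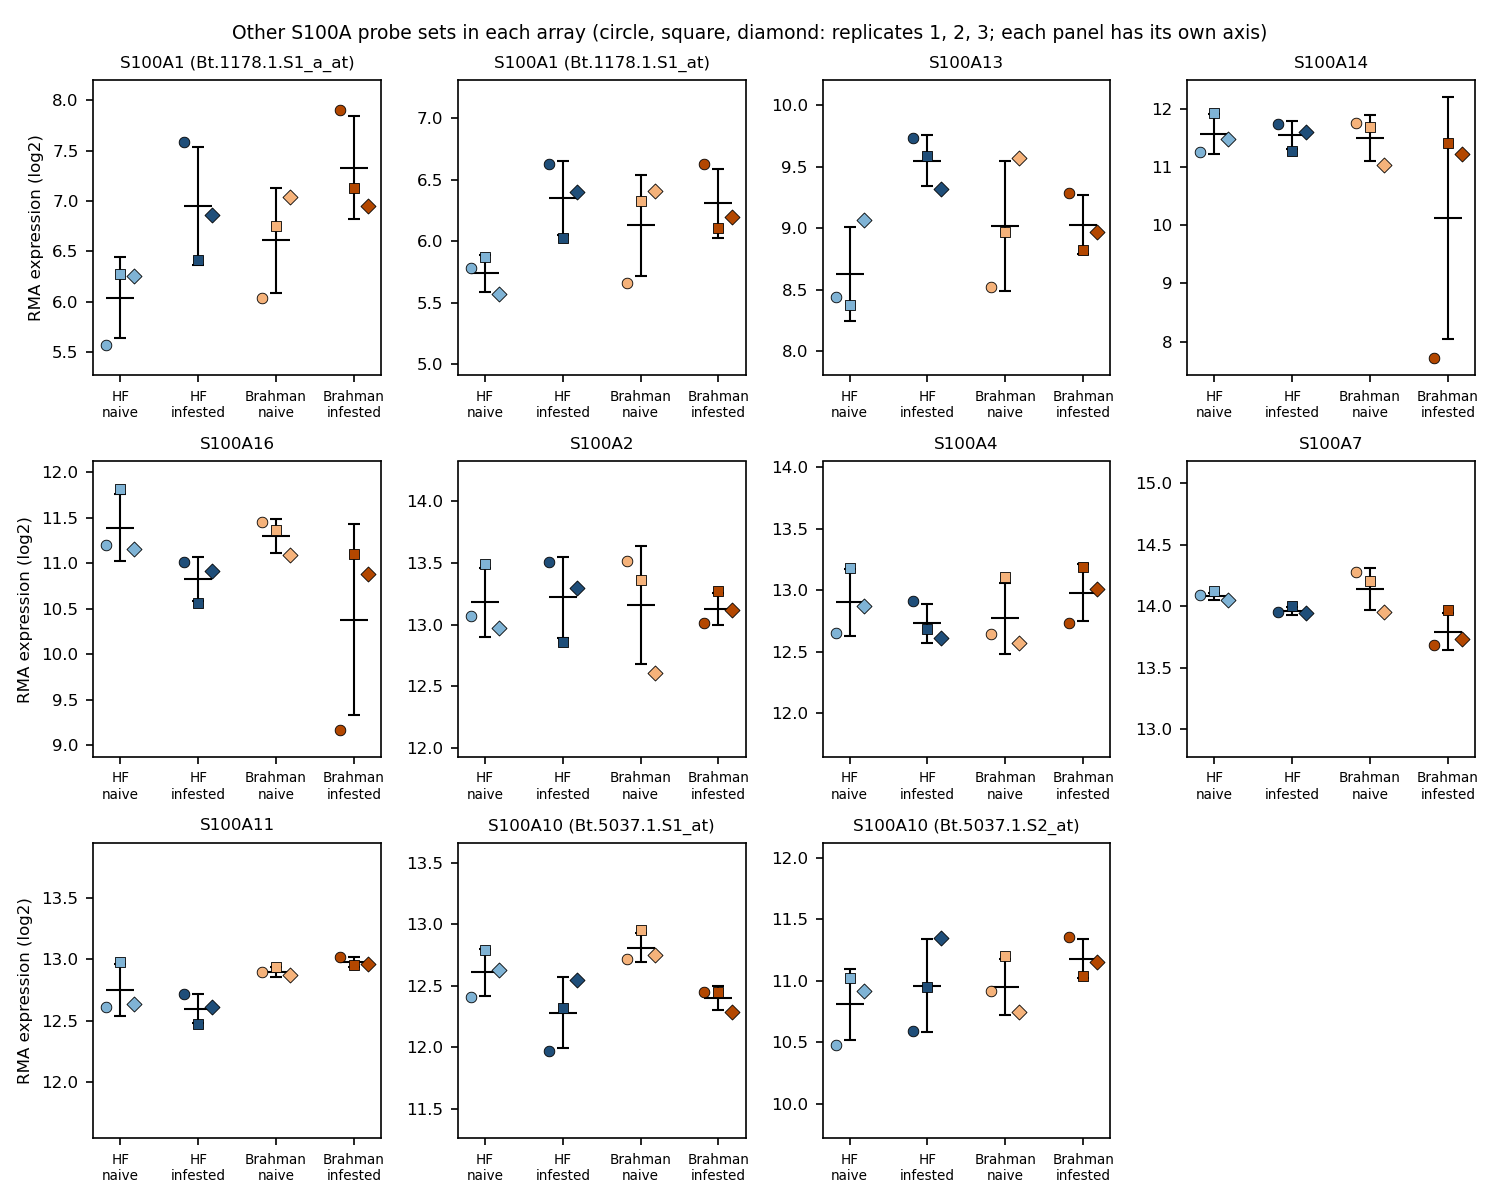
RMA expression (log2) of the 11 probe sets of the other S100A genes in each array, by breed (HF, Holstein-Friesian) and infestation, with an axis of its own for each panel. Points are arrays, horizontal bars are group means and error bars are SD (n = 3); S100A14 and S100A16 each have 1 infested Brahman array, number 1, far below the rest.

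Whether a group's arrays overlap gives a looser count. Infested and naive arrays did not overlap for 7 of 15 members in Holstein-Friesian animals, against 30.3% of all probe sets. Both S100A1 probe sets and S100A13 were higher in every infested array, and S100A8, S100A12, S100A7 and S100A16 were lower. In Brahman animals 2 of 15 did not overlap, S100A11 and 1 S100A10 probe set, against 38.5%. The members' spread within groups differed widely. The residual SD was 0.98 and 0.96 for S100A9, 0.65 for S100A8, 0.60 for S100A12 and 1.08 for S100A14, and 0.12 for S100A7 and S100A11, beside a median of 0.26 over all probe sets.

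**Figure D5:**
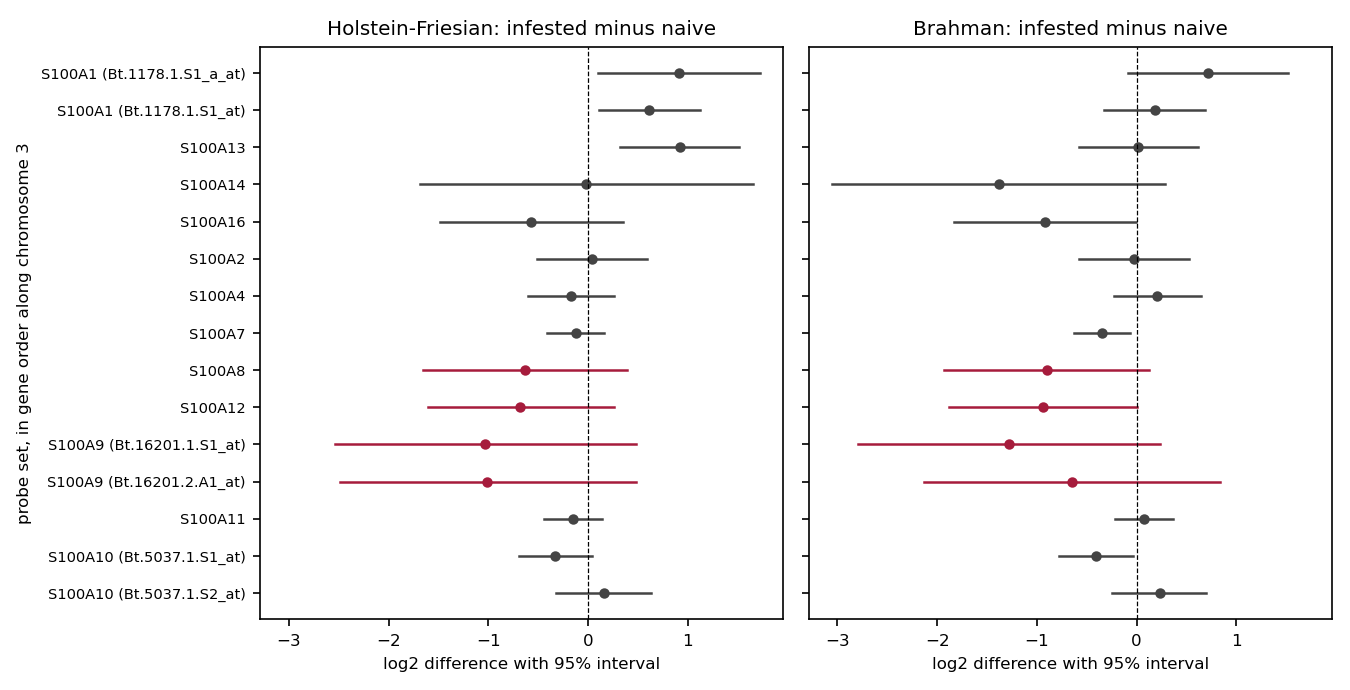
Log2 difference of infested minus naive animals for each of the 15 S100A probe sets, in Holstein-Friesian (left) and Brahman (right) animals, with 95% intervals from the limma fit and genes in their order along chromosome 3. The 4 probe sets of S100A8, S100A12 and S100A9 (red) lie below 0 in both breeds, between -1.28 and -0.63, and no probe set passed the adjusted threshold.

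No S100A probe set passed in a comparison of the breeds. Among naive animals, which differed in age as well as breed, 0 of 15 passed, against 0.025% of all probe sets. None had an unadjusted p under 0.05, against 4.78% of all probe sets. The groups of arrays overlapped for all 15 (14.5% of all probe sets did not overlap). Among infested animals, which were of the same age, 0 of 15 passed, against 0.167% of all probe sets. Of the 15, 1 had an unadjusted p under 0.05, against 13% of all probe sets. That one was S100A11, at 12.98 ± 0.04 in Brahman and 12.60 ± 0.12 (SD) in Holstein-Friesian animals, a difference of 0.38 ± 0.13 (SE, adjusted p = 0.286). The infested groups did not overlap for 3 of 15 members, against 13.4% of all probe sets: S100A11 was higher in Brahman animals, and S100A13 and 1 S100A9 probe set were lower. In the difference between the breeds in the infestation effect 0 of 15 passed, as did 0.00416% of all probe sets. For the alarmins that difference was -0.27 ± 0.66 for S100A8, -0.26 ± 0.60 for S100A12 and -0.25 ± 0.97 for the first S100A9 probe set, with intervals of -1.72 to 1.18, -1.59 to 1.06 and -2.39 to 1.89. These are wide enough to hold a difference of more than 1 log2 in either direction.

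Of the order of the group means, S100A8 and S100A12 had naive Holstein-Friesian first, then naive Brahman, infested Holstein-Friesian and infested Brahman animals. S100A8 averaged 13.83 ± 0.34, 13.37 ± 0.81, 13.19 ± 0.15 and 12.47 ± 0.96 (SD) in that order. S100A12 averaged 13.78 ± 0.24, 13.53 ± 0.64, 13.10 ± 0.14 and 12.59 ± 0.97. Neighbours in either order differed by less than the larger SD of the pair. The breed order of naive animals rested on naive Brahman array 3: without it the difference of naive Brahman from naive Holstein-Friesian animals was 0.01 for S100A8 and 0.11 for S100A12, in place of -0.46 and -0.25. For S100A9 infested Holstein-Friesian animals (10.94 ± 0.33) stood beside naive Brahman ones (10.83 ± 1.24), between naive Holstein-Friesian at 11.97 ± 0.97 and infested Brahman at 9.55 ± 1.11.

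Markers of neutrophils, the blood cells richest in calprotectin, gave no common rise. Of 16 measured genes of a neutrophil list of 24, 2 rose and 1 fell in Holstein-Friesian skin, where 5.02% of all probe sets passed. The median difference was -0.05. MMP9, a gelatinase, rose 2.21-fold and the myeloid receptor gene TREM1 1.61-fold, and PGLYRP1, a peptidoglycan-binding protein, fell 54.5-fold. In Brahman skin, where 19.8% of all probe sets passed, ELANE, neutrophil elastase, rose 1.60-fold, PGLYRP1 fell 45.2-fold, and the median was 0.21. MPO, CAMP and CXCR1 were picked after their values were seen. The granule genes MPO, ELANE and CAMP lay within 4.99 to 5.68, 3.83 to 4.95 and 4.07 to 4.55 on their own probe sets over all 12 arrays. These genes, ITGAM and CATHL1 to CATHL6 lay below the array medians, between 6.58 and 6.73, in every array. Whether a change in neutrophils would show on probe sets this low was not tested. CXCR1, a chemokine receptor of neutrophils, stood at 5.92 ± 0.60 in naive and 6.39 ± 0.83 (SD) in infested Holstein-Friesian animals and at 6.27 ± 0.25 and 5.42 ± 0.54 in Brahman animals, and did not pass. The level of the list relative to the naive mean lay between -0.22 and 0.19 in naive, between -0.24 and -0.15 in infested Holstein-Friesian and between -0.58 and -0.10 in infested Brahman arrays. The negative level of the infested Holstein-Friesian arrays and of infested Brahman array 1 rested on PGLYRP1. Without that gene the list level lay between -0.18 and 0.16 in naive, between 0.06 and 0.13 in infested Holstein-Friesian and between -0.17 and 0.28 in infested Brahman arrays. Infested Brahman arrays 2 and 3 were still below 0 without it, at -0.04 and -0.17. MMP9 did not pass when any 1 of the 6 Holstein-Friesian arrays was left out, TREM1 when any of 10 of the 12 arrays was, and ELANE without naive Brahman array 3 (adjusted p = 0.0648). LTF, which encodes lactoferrin of neutrophils and glands, averaged 10.38 in naive and 8.69 in infested Holstein-Friesian animals, and 8.37 and 7.27 in Brahman animals, and did not pass (adjusted p = 0.152 and 0.241). In Brahman skin LTF passed without infested array 1, at -1.87 (adjusted p = 0.0271), and in Holstein-Friesian skin with the same array left out of the shared spread (adjusted p = 0.0402).

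Monocyte and macrophage genes rose, while the alarmins, which monocytes also make, did not pass the test. Of 11 measured genes 7 rose in Holstein-Friesian skin, with CD209 at 6.24-fold, C1QA at 5.41-fold and CD14 at 4.67-fold, and 5 rose in Brahman skin, with MSR1 at 4.39-fold, CD14 at 2.81-fold and AIF1 at 2.32-fold. None fell, and the list medians were 1.83 and 1.14. Beside each list count stand the shares of all probe sets that passed, 5.02% in Holstein-Friesian and 19.8% in Brahman skin. Leaving out 1 array gave 3 (without infested Holstein-Friesian array 3) to 11 genes that passed in Holstein-Friesian and 2 (without naive Brahman array 3) to 6 in Brahman skin. CD14 and MSR1 passed throughout in both breeds, while AIF1 lost its call in Brahman skin with each of 10 arrays left out in turn. Of 9 measured keratinocyte genes none passed in either breed by limma, and 1 in each had an unadjusted p under 0.05. These were TGM1 in Holstein-Friesian skin, at 0.50 ± 0.15 (adjusted p = 0.0874), and SFN in Brahman skin, at -2.83 ± 1.07 (adjusted p = 0.0834). SFN stood at 5.43, 10.66 and 10.51 in infested and at 12.03, 11.81 and 11.28 in naive Brahman arrays. Without infested array 1, the array of lowest index, its difference was -1.12 and passed (adjusted p = 0.0247), as it did at -3.73 and -3.66 without array 2 or 3 (adjusted p = 0.0424 and 0.0449). With the index as a covariate it was -0.29 (adjusted p = 0.832). Of 6 measured genes of wounded epidermis KRT6B alone passed, in Brahman skin. Glandular epithelium had 4 of 6 genes that fell in each breed, with KRT19, AZGP1 and KRT7 at 4.56-fold, 3.83-fold and 3.55-fold in Holstein-Friesian skin, and in Brahman skin AZGP1 at 7.10-fold and KRT19 at 6.34-fold, while AQP5 rose 6.91-fold. Of 6 melanocyte genes TYRP1 fell 6.66-fold in Brahman skin, and none passed in Holstein-Friesian skin. TYRP1 lost its call with each of 5 arrays left out in turn, and KRT19 in Holstein-Friesian skin with each of 4. The part of these cell types in the S100A values was not tested.

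Of 15 measured receptor and partner genes of the S100 proteins together, 2 passed in Holstein-Friesian skin, or 13.3% against 5.02% of all probe sets, and 1 in Brahman skin, or 6.67% against 19.8%. Of 5 measured receptor and signalling genes none passed in either breed by limma, and TLR4, the calprotectin receptor, stood at 0.94 ± 0.40 (adjusted p = 0.198) and 0.02 ± 0.40. TLR4 was 7.22, 9.15 and 7.85 in infested Holstein-Friesian arrays, against a naive mean of 7.14. Its difference was 0.40 without infested array 2, and 1.36 without infested array 1, where it passed (adjusted p = 0.0479). AGER, the receptor of S100A12, stood at -0.08 ± 0.23 and 0.11 ± 0.23. Unadjusted p was under 0.05 for TLR4 and the scavenger receptor gene CD36 (1.45 ± 0.42, adjusted p = 0.0710) in Holstein-Friesian and for BSG (-1.24 ± 0.56, adjusted p = 0.143) in Brahman skin. CD36 passed without infested Brahman array 1 (adjusted p = 0.0199). BSG was 8.63, 11.38 and 11.26 in infested Brahman arrays, and its difference was -0.34 without array 1. Of 10 measured partner genes ANXA6, annexin A6, fell 2.32-fold in Holstein-Friesian (adjusted p = 0.00698) and 1.70-fold in Brahman skin (adjusted p = 0.0137). The Brahman call was lost without naive Brahman array 3 (adjusted p = 0.0529) and with the integrity index as a covariate (-0.47, adjusted p = 0.125). PLAT, the tissue plasminogen activator that S100A10 can bind, rose 3.76-fold in Holstein-Friesian skin (adjusted p = 0.0238) and did not pass in Brahman skin, at 1.02 ± 0.39. PLAT did not pass in Holstein-Friesian skin without infested array 2 (1.51, adjusted p = 0.0596) or with any 1 of the 3 naive arrays left out. None of 5 genes of NADPH oxidase, to which calprotectin delivers arachidonic acid in phagocytes, passed in either breed. CYBB, at 1.17 ± 0.42 and 1.03 ± 0.42, had an unadjusted p under 0.05 in both. CYBB passed with the integrity index as a covariate, at 1.26 (adjusted p = 0.00729) and 2.03 (adjusted p = 0.00206), and without infested array 1 of the breed, at 1.65 (adjusted p = 0.0287) and 1.41 (adjusted p = 0.0344). RAC1 had an unadjusted p under 0.05 in both too, at 0.44 ± 0.12 and 0.30 ± 0.12, as did RAC2 in Holstein-Friesian skin.

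Cytokines known to induce S100A8 and S100A9 in keratinocytes did not pass. Of 6 measured genes none had an unadjusted p under 0.05 in either breed. IL1B stood at 5.44, 8.18 and 4.96 in infested Holstein-Friesian arrays and between 4.86 and 5.25 in the other 9. IL6 stood at 4.07, 9.71 and 3.95 in infested Holstein-Friesian arrays and between 3.62 and 5.21 in the other 9. The array with the high IL1B and IL6 values, number 2, had 13.19 for S100A8, between those of the other infested Holstein-Friesian animals. The 2 measured S100 genes outside the S100A series, S100B of nerve and melanocytes and S100G of calcium transport, stood at -0.33 ± 0.32 and 1.10 ± 0.41 in Holstein-Friesian and at -0.00 ± 0.32 and 0.32 ± 0.41 in Brahman animals. Neither passed in either breed by limma, and S100G in Holstein-Friesian skin had an unadjusted p under 0.05.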

How the data were processed

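Total RNA of 12 skin biopsies was hybridised to Affymetrix bovine arrays, 1 per animal. The deposited values are log2 expression made by the authors with RMA, per the submitters' processing notes. Which program ran it, and with which probe grouping, is not given in the sources used here. RMA subtracts background and forces the arrays towards 1 distribution, so a shift shared by most genes would be lost. Array medians lay between 6.58 and 6.73.

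Of 24128 probe sets, 112 controls were left out. Symbols came from the platform annotation: 13292 probe sets had 1, 86 several and 10638 none. limma 3.58.1 in R 4.3.3 fitted 4 group means to all 12 arrays (8 residual degrees of freedom), and p-values, two-sided, were adjusted by Benjamini-Hochberg over 24016 probe sets at 0.05. The procedure was tested on simulated data.

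The members and the 13 gene lists (106 of 163 genes measured) were chosen with earlier results of these data known. A list gene is read on its probe set of highest mean, and a list level is the mean difference of an array from the naive mean. Up to 3 genes per list and infestation comparison are named, those past the threshold with the largest change first, then those of smallest p, and the 5 genes most like each alarmin by Pearson r. Some genes are named outside this rule, among them LTF and ITGAM of the neutrophil list. Correlations have 1e+05 permutations.

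Same-numbered naive and infested Holstein-Friesian arrays deviated together from their group means (correlations between 0.113 and 0.249), so the replicate number was tried as a block. They came from different animals of different ages, the labels give no pairing, and the main fit was unpaired. For naive and infested Brahman arrays the correlations lay between -0.189 and -0.053. No probe sequence was used here.

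Alternatives were median centring, cyclic loess, a filter at the 40% quantile of mean signal, only the 6 arrays compared, a trended and robust prior, a replicate block, the integrity index as a covariate, leaving out the 2 arrays of lowest index, and leaving out each array. An index of 5 transcripts, without actin, was added after seeing the data, as were these alternatives for the list genes and list levels without each gene.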

Additional observations from a re-analysis of the deposited data

How the results depend on the processing

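The 75 differences of the S100A probe sets were recomputed under 20 or 21 alternatives each, 1560 values in all, and 2 changed a call. In infested against naive Brahman animals the count of S100A probe sets that passed was 1 with the trended and robust prior (S100A7, -0.35) and 1 without the 2 arrays of lowest RNA integrity index (S100A12, -1.31), in place of 0; the cause was not tested. Leaving out each array in turn gave a count of 0 to 0 in all 5 comparisons. With the replicate number as a block the count was 0 and no S100A call changed, the smallest adjusted p among the alarmins being 0.0863 for S100A12 in Brahman animals. No called value reversed, and 92 of the 1560 values had the other sign in differences that passed under neither setting. Over all probe sets, the number passing ran from 157 (without naive array 1) to 4076 (without the 2 arrays of lowest index) around 1206 in Holstein-Friesian animals, and from 1808 (index without actin as a covariate) to 6255 (without those 2 arrays) around 4753 in Brahman animals. Centring each array on its median moved the Brahman median of all probe sets from 0.04 to 0.14, and S100A12 then stood at -0.85. The number of animals, 3 a group, limits the precision.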

Other observations

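S100PBP encodes a nuclear protein that binds S100P, another member of the S100 family, and is not itself an S100 gene. It was chosen after its values were seen. Its 3 probe sets fell in infested skin of both breeds. In Holstein-Friesian animals the log2 differences were -0.94 ± 0.24, -0.91 ± 0.23 and -0.81 ± 0.19 (SE, n = 3 per group; limma adjusted p = 0.0462, 0.0486 and 0.0377). In Brahman animals they were -1.11, -1.08 and -1.06 (limma adjusted p = 0.00974, 0.0102 and 0.00451). On each probe set 6 of 6 infested arrays lay below the lowest naive array. The naive arrays spanned 6.42 to 7.33, 5.92 to 6.58 and 4.59 to 5.18, and the infested arrays 5.33 to 5.88, 5.01 to 5.55 and 3.68 to 4.31. All infested values lay below the array medians, between 6.58 and 6.73. How well the size of a change is read at signals this low was not tested. Over all probe sets, infested and naive arrays did not overlap for 30.3% in Holstein-Friesian and 38.5% in Brahman animals. The share apart in both breeds together was not counted. The Holstein-Friesian calls of S100PBP were near the threshold and passed under 6 of 21, 5 of 20 and 11 of 20 alternatives, with adjusted p up to 0.176. The Brahman calls passed under 20 of 21, 20 of 20 and 19 of 20.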
